A study of Homo sapiens with 6 samples.

Results

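The NIPA family of magnesium transporters was examined in RNA-seq of 8505C cells, an established cell line from a human anaplastic thyroid cancer (ATC). The members were chosen by gene name, as all 6 NIPA paralogues among the 32985 genes measured: NIPA1, NIPA2, NIPAL1, NIPAL2, NIPAL3 and NIPAL4. The rule uses names only, but the family was chosen with earlier results of these data known. NIPA1 and NIPAL1 are also named by the study from these same libraries. The cells received control siRNA (siCtrl, 3 libraries, genotype given as WT) or siRNA against NUF2 (siNUF2, 3 libraries, genotype given as NUF2 knockdown) and carry the time 24 h in their labels. The siNUF2 libraries are numbered 1 to 3 and were read as replicates. The labels do not say whether those numbers could stand for different siRNAs, in which case their SD would include that difference, and the methods list 1 NUF2 siRNA. NUF2 is a subunit of the NDC80 complex, which ties kinetochores to spindle microtubules. The comparison asks which messages differ in level between cells given siRNA against NUF2 and cells given control siRNA. All libraries come from 1 cell line, and nothing says whether replicates are separate cultures, so p-values measure only the spread between these libraries.

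NIPA proteins are membrane proteins with several transmembrane helices that carry magnesium and, in some members, other divalent cations. NIPA1 sits in the plasma membrane and in early endosomes, is known to restrain BMP signalling by promoting turnover of the BMP type II receptor, and is the gene of the hereditary spastic paraplegia SPG6. NIPA2, its neighbour on chromosome 15, is a magnesium transporter known from kidney epithelium. NIPAL4, or ichthyin, acts in the lipid barrier of the epidermis and is mutated in a congenital ichthyosis. NIPAL1, NIPAL2 and NIPAL3 are named for their similarity to these proteins. The deposited annotation gives all 6 members magnesium ion transport, a GO term held by 14 genes in the table, and places NIPA1 and NIPA2 in the early endosome.

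The libraries held 61257859 to 69755291 counts each. NUF2, the targeted gene, was at 14.8, 14.5 and 12.2 FPKM (sequenced fragments, corrected for transcript length and depth) in siCtrl and at 1.53, 2.05 and 1.56 FPKM in siNUF2, or 12.4% of its control mean. Thyroid identity was only partly visible: of 10 thyroid markers, NKX2-1 and HHEX were above a mean of 1 FPKM, whereas TG and SLC5A5 reached at most 0.0143 FPKM in any library. The summed level of 5 leukocyte markers was 3.48 to 14.9 FPKM in siCtrl and 4.74 to 6.29 FPKM in siNUF2, and its high value came from LYZ at 7.47 FPKM in siCtrl replicate 1. The mitochondrial share of counts was 5.46% to 6.70% in siCtrl and 6.54% to 7.06% in siNUF2, with overlapping ranges, and was higher in siNUF2 by 0.367, 1.11 and 1.08 percentage points within replicate numbers 1, 2 and 3. Its part in the results was not tested.

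In siCtrl cells, NIPA2 was the most abundant member, at 14.5 ± 1.11 FPKM (SD, n = 3). NIPA1 and NIPAL3 came next with mean levels of 4.87 ± 0.127 and 4.79 ± 0.790 FPKM, and their ranges overlapped. NIPAL1 followed at 1.40 ± 0.217 FPKM, then NIPAL2 at 1.05 ± 0.208 and NIPAL4 at 0.398 ± 0.0884 FPKM. FPKM is scaled by transcript length, so these levels can be set side by side. Apart from NIPA1 and NIPAL3, no neighbouring pair in this order had overlapping ranges in siCtrl, and no pair of neighbours was tested.

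After NUF2 knockdown, the mean FPKM of all 6 members was lower than in siCtrl, by very different amounts. NIPA1 and NIPAL1 fell to 46.1% and 45.7% of their control level, NIPA2 was at 74.9% of it, and NIPAL3 at 93.4%. In 3 members (NIPA1, NIPA2 and NIPAL1) every siNUF2 library lay below every siCtrl library, and in the other 3 the groups overlapped. In bulk RNA, fewer expressing cells and less RNA per cell cannot be told apart.

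**Figure D1:**
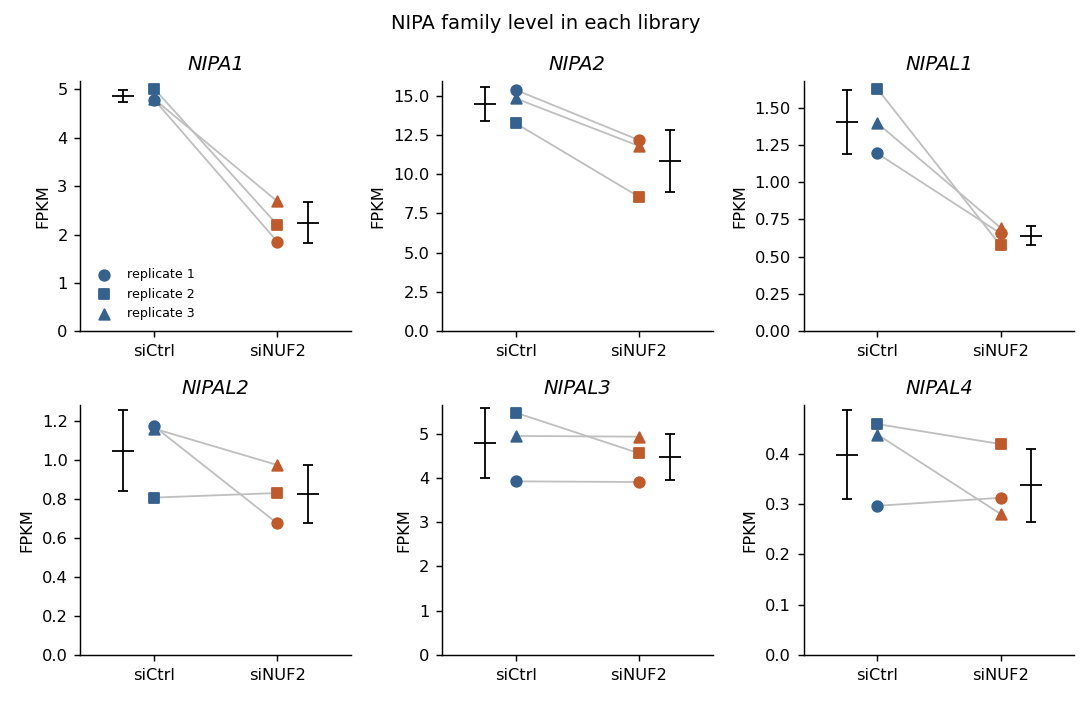
The 6 panels plot FPKM of each NIPA family member (vertical axes from 0, a different scale in each panel) in the 3 siCtrl (blue) and 3 siNUF2 (orange) libraries; marker shapes and grey lines join libraries with the same replicate number, and black bars are mean ± SD. NIPA1, NIPA2 and NIPAL1 show no overlap between groups, while NIPAL2, NIPAL3 and NIPAL4 do.

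NIPA1 (ENSG00000170113, GRCh38 chr15:22773063-22829789, plus strand) was at 4.79, 5.01 and 4.80 FPKM in the siCtrl libraries. In siNUF2 it was at 1.85, 2.20 and 2.68 FPKM. The control libraries lay close together, and the highest siNUF2 library was still well under the lowest control. The level fell from 4.87 ± 0.127 to 2.25 ± 0.418 FPKM (SD, n = 3), to 46.1% of control. The log2 fold change was -1.09 (SE 0.15, 95% interval -1.44 to -0.74), with an adjusted p of 0.00953 in edgeR's quasi-likelihood test. Among the 11725 genes with a mean of at least 1 FPKM, which were the genes tested, its log2 fold change ranked 92 from the lowest. Between 1246 and 3525 counts per library stood behind these values. Compared by replicate number, siNUF2 was at 38.7%, 43.9% and 55.9% of the siCtrl library with the same number.

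NIPAL1 (ENSG00000163293, chr4:47914142-48040173, plus strand) was about as strongly lowered as NIPA1, from a lower starting level. Its FPKM was 1.19, 1.63 and 1.39 in siCtrl and 0.656, 0.575 and 0.694 in siNUF2. The siNUF2 libraries were closely grouped, and the controls were spread more widely above them. The mean fell from 1.40 ± 0.217 to 0.642 ± 0.0610 FPKM (SD, n = 3), to 45.7% of control. The log2 fold change was -1.11 (SE 0.20, 95% interval -1.58 to -0.64), with an adjusted p of 0.0261 in edgeR. This call was less firm than that of NIPA1. Its mean over the 6 libraries, 1.02 FPKM, only just passed the filter, its counts were 277 to 787 per library, and without any single library the adjusted p was 0.0557 to 0.0945, with log2 fold changes of -1.21 to -0.99.

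NIPA2 (ENSG00000140157, chr15:22838644-22869362, plus strand) was at 15.4, 13.2 and 14.8 FPKM in siCtrl. In siNUF2 it was at 12.2, 8.56 and 11.8 FPKM. Replicate 2 was the lowest library of each group, and the groups did not overlap. The means were 14.5 ± 1.11 and 10.8 ± 1.99 FPKM (SD, n = 3), with a log2 fold change of -0.40 (SE 0.14, 95% interval -0.72 to -0.07). This difference did not pass the test across all genes, with an adjusted p of 0.193 (unadjusted 0.0231) in edgeR. Libraries with the same replicate number deviated together across genes. In edgeR with that number taken as a block, NIPA2 reached -0.41 on the log2 scale and was called lower, at an adjusted p of 0.0184. That call ended when the block was fitted with no filter on low genes (adjusted p = 0.189 in edgeR). That fit called no gene at all, NUF2 included, so the loss there is not particular to NIPA2. By number, siNUF2 was at 79.2%, 64.7% and 79.6% of siCtrl.

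NIPAL3 (ENSG00000001461, chr1:24415802-24472976, plus strand) was at 3.93, 5.48 and 4.95 FPKM in siCtrl and at 3.91, 4.56 and 4.94 FPKM in siNUF2. Replicate 1 was the lowest library in both groups, and the groups overlapped almost completely. The log2 fold change was -0.08 (95% interval -0.42 to 0.27), with an adjusted p of 0.847 in edgeR, or 0.620 with the replicate block. The interval leaves room for a modest change in either direction but not for one of the size fitted for NIPA1. Its sign turned when siCtrl replicate 2 (0.03) or siNUF2 replicate 1 (0.02) was left out.

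The remaining members were below the filter of 1 FPKM on the mean of the 6 libraries. NIPAL2 (ENSG00000104361, chromosome 8, minus strand) had a mean of 0.937 FPKM, with 1.17, 0.808 and 1.16 in siCtrl and 0.675, 0.831 and 0.975 in siNUF2. The second control library lay among the siNUF2 libraries. The mean was 79.0% of control, and an exact two-sided permutation test gave p = 0.3, where the smallest p that 3 against 3 libraries allow is 0.1. Fitted with no filter, NIPAL2 had a log2 fold change of -0.32 (95% interval -0.89 to 0.25) and an adjusted p of 0.610 in edgeR.

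NIPAL4 (ENSG00000172548, chr5:157460019-157474717, plus strand) was the least abundant member, with 85 to 158 counts per library. Its FPKM was 0.297, 0.459 and 0.438 in siCtrl and 0.312, 0.419 and 0.280 in siNUF2. The groups overlapped, with p = 0.3 in the exact two-sided permutation test. With no filter the log2 fold change was -0.22 (95% interval -0.99 to 0.54) and the adjusted p was 0.840 in edgeR. The width of that interval shows how little this depth allows to be said of NIPAL4.

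Thus 2 of the 6 members, NIPA1 and NIPAL1, were called lower among genes with a mean of at least 1 FPKM, and 4 of the 6 were tested there. Across all genes tested, 2.46% were called lower (289 of 11725) and 179 were called higher, and the median log2 fold change was 0.01. With the replicate block, 3 members were called lower (NIPA1, NIPA2 and NIPAL1), against 7.91% of all genes tested. With the block and no filter (a fit chosen with the data in view), none of the 6 members was called in edgeR, nor was any other gene, and the adjusted p was 0.0831 for NIPA1, 0.138 for NIPAL1 and 0.189 for NIPA2. The study's rule on FPKM, a mean ratio under 0.5 with an unadjusted p under 0.05, was met by NIPA1 and NIPAL1, against 1.19% of all 32985 genes. That share includes genes under a mean of 1 FPKM, unlike the edgeR shares. Of the genes tested, 13.4% had every siNUF2 library below every siCtrl library, as NIPA1, NIPA2 and NIPAL1 did. For each of these 3 members the exact permutation test gave p = 0.1, the smallest it can give.

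**Figure D2:**
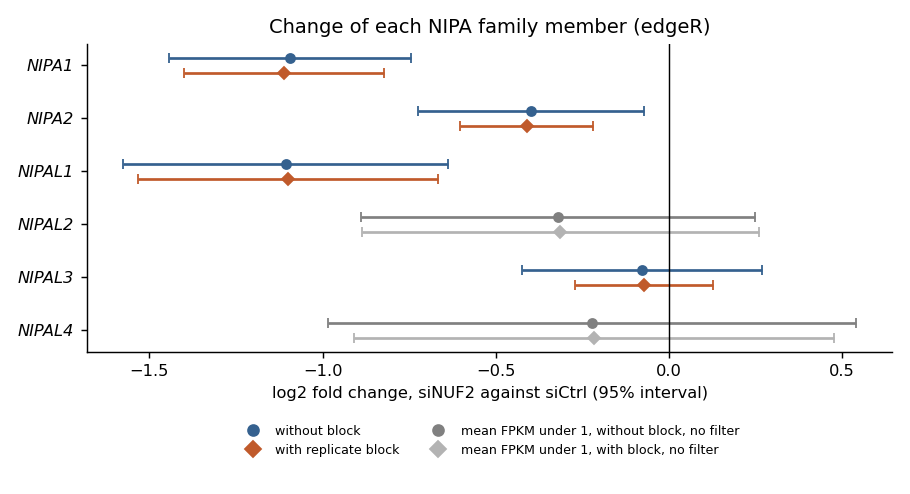
Points are log2 fold changes of siNUF2 against siCtrl for each NIPA family member (horizontal axis) with 95% intervals from edgeR, with circles for the fit without and diamonds for the fit with the replicate number as a block; grey marks the members under a mean of 1 FPKM, fitted with no filter. The intervals of NIPA1 and NIPAL1 lie well below 0 at -1.09 and -1.11, that of NIPA2 ends near 0 without the block, and those of the other 3 members span 0.

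Since the members differed in how far they fell, the difference between paralogues was tested as the log2 ratio of their FPKM within each library, for the 6 pairs of the 4 tested members. The log2 ratio of NIPA1 to NIPA2 was -1.68, -1.40 and -1.63 in siCtrl and -2.72, -1.96 and -2.14 in siNUF2. NIPA1 thus fell relative to its chromosomal neighbour in every siNUF2 library, by 0.70 on the log2 scale on average. The ratio of NIPA1 to NIPAL3 shifted by -1.04, and that of NIPAL1 to NIPAL3 by -1.03. NIPA2 gained on NIPAL1 by 0.69. In these 4 pairs the groups were apart, with p = 0.1 in the exact two-sided permutation test, the smallest possible, and 0.15 after adjustment over the 6 pairs. For NIPA2 and NIPAL3 the mean shift was -0.34 with overlapping groups (exact permutation p = 0.4, not using the replicate numbers). Within replicate numbers 1, 2 and 3 their ratio shifted by -0.33, -0.36 and -0.32, in the same direction and by similar amounts each time.

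The log2 ratio of NIPA1 to NIPAL1 hardly differed in its averages. It was 1.80 ± 0.191 in siCtrl and 1.80 ± 0.258 in siNUF2 (SD, n = 3). The difference was -0.01 with overlapping groups, and the exact permutation p was 1. The siCtrl libraries alone ran from 1.63 to 2.01. The libraries did not move in step, however: in siNUF2 the NIPA1 level was lowest in replicate 1 and the NIPAL1 level in replicate 2.

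**Figure D3:**
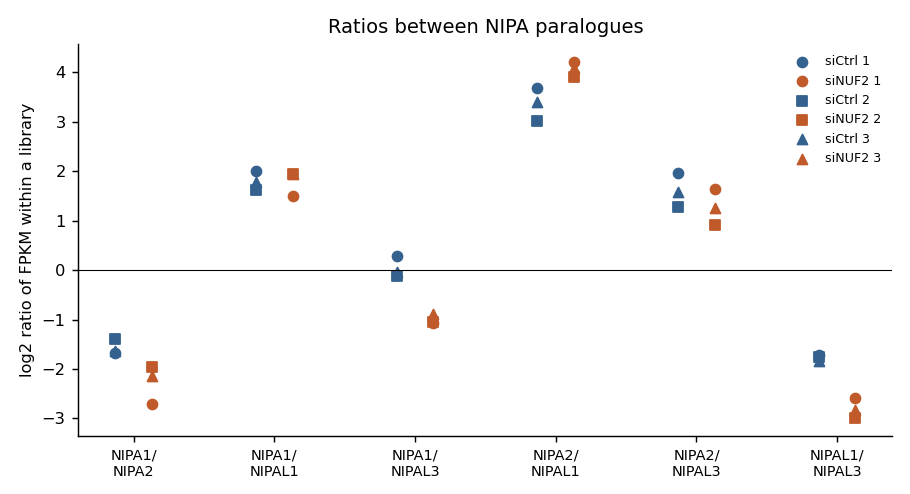
The vertical axis is the log2 ratio of FPKM between the members of a pair within a library, for siCtrl (blue) and siNUF2 (orange); marker shapes give the replicate number. NIPA1/NIPA2, NIPA1/NIPAL3 and NIPAL1/NIPAL3 are lower in every siNUF2 library, NIPA2/NIPAL1 is higher, and NIPA1/NIPAL1 and NIPA2/NIPAL3 overlap.

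Summed over the 6 members, NIPA family mRNA was at 26.7, 26.6 and 27.6 FPKM in siCtrl. It was at 19.6, 17.2 and 21.4 FPKM in siNUF2. The control libraries agreed closely, and the siNUF2 libraries were lower and more spread, with a mean of 71.8% of control. Shares of this sum depend on the transcript lengths used for FPKM. NIPA2 made up 53.7% of the sum in siCtrl and 55.8% in siNUF2. The share of NIPA1 was 18.0% in siCtrl and 11.6% in siNUF2, and the share of NIPAL3 was 17.7% and 23.2%. NIPAL1 held 5.21% and 3.32%, NIPAL2 3.88% and 4.28%, and NIPAL4 1.47% and 1.78%. In siNUF2 the level of NIPA1 (1.85 to 2.68 FPKM) was below that of NIPAL3 (3.91 to 4.94 FPKM) in every library, whereas in siCtrl their levels overlapped. NIPAL1, above NIPAL2 in siCtrl, was at 0.776 of the mean level of NIPAL2 in siNUF2, with overlapping ranges.

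**Figure D4:**
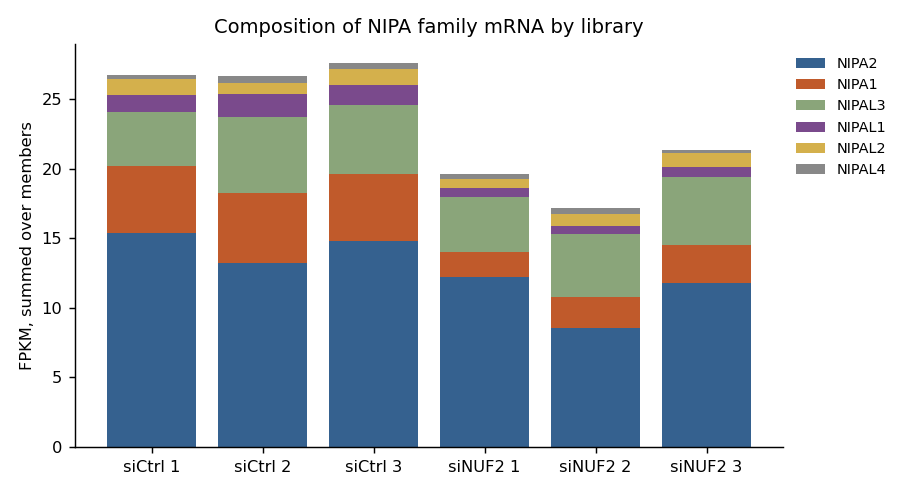
Each bar is a library and stacks the FPKM of the 6 NIPA family members (vertical axis, summed FPKM, from 0). The siCtrl bars reach 26.6 to 27.6 FPKM and the siNUF2 bars 17.2 to 21.4 FPKM, with NIPA2 the largest part of every bar and a thinner NIPA1 layer in siNUF2.

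An siRNA can also lower messages whose 3′ UTR pairs with bases 2 to 8 of its guide strand, as a miRNA seed does. The 3′ UTRs of the members' canonical GENCODE transcripts were therefore searched for TATGGAA, on the message strand, the 7-base word that pairs with those bases of the guide strand of the NUF2 siRNA in the study's methods, where its antisense strand was taken as the guide. NIPA1 and NIPAL1 each held 1 copy, and NIPA2, NIPAL2, NIPAL3 and NIPAL4 held none. Both sites are shown because the 2 members called lower in edgeR without the block were the 2 that carried the word. NIPA2, also called lower with the replicate block (adjusted p = 0.0184 in edgeR), did not carry it. The word stands in capitals with its flanks in lower case, 5′ to 3′.
NIPA1: ctattgtaaaaTATGGAAattaaacaggg
NIPAL1: cttattgatttTATGGAAaataaattggc
The NIPA1 site lies at chr15:22829111-22829139 (GRCh38, plus strand), in exon 5 of 5 and 4883 nt after the stop codon. The NIPAL1 site lies at chr4:48037838-48037866 (plus strand), in exon 6 of 6 and 1677 nt after the stop codon. These members also had the longest 3′ UTRs of the family, 5550 and 4001 nt, beside 3791 nt in NIPAL3, 3152 nt in NIPAL2, 1762 nt in NIPAL4 and 1537 nt in NIPA2.

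The word was not rare. It occurred in 15.1% of the 10121 tested genes with an annotated 3′ UTR, and in 36.4% of the 2199 tested genes with a 3′ UTR of at least 3000 nt, a length set after the members' lengths were known. Among genes called lower, 163 of 284 held it. Of genes with the word 10.6% were called lower, and of genes without it 1.41%. Their median log2 fold changes were -0.11 and 0.02. These are descriptions across genes with no test and no matching for 3′ UTR length, and a match of letters is not a shown site. The part of the word in the fall of NIPA1 and NIPAL1 was not tested, and with 1 siRNA sequence in the methods, loss of NUF2 and other effects of that siRNA cannot be told apart here. The 6-base word ATGGAA, contained in the longer one, occurred 2 times in NIPA1, 4 times in NIPAL1, 2 times in NIPAL2, 1 time each in NIPA2 and NIPAL3 and not in NIPAL4. A further copy of the 7-base word lay in the coding sequence of NIPAL2, and another in the longest of its annotated 3′ UTRs.

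Reads shared between paralogues could mix their counts. The members encode proteins of 329 (NIPA1), 360 (NIPA2), 410 (NIPAL1), 383 (NIPAL2), 406 (NIPAL3) and 404 (NIPAL4) codons. Their coding sequences were 53.7% to 68.2% identical in pairwise alignment, with NIPA2 and NIPAL1 the most alike pair and NIPA1 and NIPA2 at 57.4%. No pair shared a stretch of 30 bases. NIPA2P4, a NIPA2 pseudogene in the table, had 4 counts in all.

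Several members overlap other genes, and the strand setting of the counting is not given in the sources used here. NIPA2 overlaps CYFIP1, an antisense neighbour that links Rac signalling to actin assembly, over 2311 bases. CYFIP1 was at 8.82 FPKM in siCtrl and 9.52 FPKM in siNUF2, a log2 fold change of 0.13 (adjusted p = 0.521 in edgeR). NIPAL1 overlaps NFXL1 over 526 bases on the opposite strand, with 4.30 and 3.87 FPKM (log2 fold change -0.13, adjusted p = 0.673 in edgeR). NIPAL1 also overlaps antisense CNGA1 over 80705 bases, a gene at 0.0604 FPKM in siCtrl and 0.0906 FPKM in siNUF2. These overlaps were taken over the whole annotated span of NIPAL1, while its canonical transcript starts only at chr4:48016772. Whether NFXL1 or CNGA1 reaches that transcript was not examined.

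NIPAL4 lies wholly within antisense ADAM19, a metalloprotease gene at 1.46 FPKM in siCtrl and 1.76 FPKM in siNUF2 (log2 fold change 0.29, adjusted p = 0.556 in edgeR). How many of the few NIPAL4 reads came from ADAM19 was not tested. NIPAL3 overlaps STPG1 over 794 bases, with 0.559 and 0.581 FPKM. The overlapping transcripts AC138649 in NIPA1, RNU6-914P in NIPAL2 and AC008676 in NIPAL4 were each under a mean of 0.05 FPKM.

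NIPA1 and NIPA2 lie side by side in an interval of chromosome 15 with CYFIP1 and TUBGCP5, which encodes a subunit of the gamma-tubulin ring complex. TUBGCP5 was at 3.76 ± 0.0842 FPKM in siCtrl and 4.42 ± 0.561 in siNUF2 (SD, n = 3), with every siNUF2 library above every siCtrl library. The same held for 1234 of the 11725 genes tested. The log2 fold change of TUBGCP5, 0.25, did not pass the test (adjusted p = 0.348 in edgeR). Of the 4 genes of the interval, only NIPA1 was called in this fit, and with the replicate block NIPA1 and NIPA2 were.

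Of 17 other magnesium transporters and their regulators, 14 were tested and only MAGT1, which takes part in magnesium uptake and in N-glycosylation, was called in edgeR without the block. It fell from 13.3 ± 1.82 to 5.75 ± 0.908 FPKM (SD, n = 3), a log2 fold change of -1.18 (SE 0.15) with an adjusted p of 0.00746 in edgeR. The next largest change in the list, MRS2, the magnesium channel of the inner mitochondrial membrane, stood at -0.53 on the log2 scale (adjusted p = 0.0532 in edgeR, 0.0141 with the replicate block and 0.00431 in DESeq2). Of the 14 tested genes 10 had a negative log2 fold change, and the median was -0.07, beside 0.01 for all genes tested. With the replicate block ZDHHC13, a palmitoyl transferase, was called lower as well, at an adjusted p of 0.0494 in edgeR. DESeq2 called the same 3 genes, MAGT1, MRS2 and ZDHHC13. Across all 11725 genes tested, the block fit called 927 lower and DESeq2 564.

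Because NIPA1 acts on the BMP receptor, the BMP pathway was read beside it. Of 16 genes 14 were tested and none was called in edgeR without the block, with a median log2 fold change of -0.01. At an unadjusted p under 0.05 in edgeR there were 4, beside 2129 of all 11725 genes tested. Among the tested genes the largest changes were in ID3 and ID1, transcriptional inhibitors that BMP signals are known to induce. ID3 was at 63.9 ± 16.1 FPKM in siCtrl and 116 ± 22.2 in siNUF2 (SD, n = 3), a log2 fold change of 0.87 with an adjusted p of 0.0630 in edgeR, 0.00115 with the replicate block and 0.000400 in DESeq2. In edgeR without the block, ID3 was not called when any single library was left out either (adjusted p 0.0731 to 0.207). For ID1 the value was 0.42 (adjusted p = 0.268 in edgeR). Of the 14 tested genes 7 had a negative log2 fold change, among them ID2 (-0.20) and SMAD6 (-0.23). SMAD7 stood at 0.04. With the block, 2 genes of this list, SMAD4 and SMAD5, were also called lower. That fit called 927 genes lower and 778 higher across all genes tested.

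Among 20 hereditary spastic paraplegia genes of membrane shape and endosomes, 14 were tested. ERLIN2, an endoplasmic reticulum protein of the degradation machinery for the IP3 receptor, was called higher, from 3.18 ± 0.321 to 5.32 ± 0.658 FPKM (SD, n = 3; log2 fold change 0.76, adjusted p = 0.0190 in edgeR). Leaving out siCtrl replicate 2 or 3 or siNUF2 replicate 1 or 3 ended that call, with adjusted p up to 0.0826 in edgeR. It also ended in edgeR fits with no filter (0.0569) and with the block and no filter (0.0730), of which the latter called no gene. AP4E1, a subunit of the AP-4 adaptor, was at -0.52 on the log2 scale (adjusted p = 0.106 in edgeR, 0.0164 with the block and 0.0240 in DESeq2). The median of the list was 0.03. With the block AP4E1, ARL6IP1 and SPART were called lower and ERLIN1 and ERLIN2 higher, and DESeq2 called the same 5 genes. Across all 11725 genes tested, the block fit called 1705 and DESeq2 972. Of 10 ichthyosis genes, the setting in which NIPAL4 is known, 8 were among the genes measured. Only SLC27A4, a fatty acid transport protein, was abundant enough to test (log2 fold change 0.18, adjusted p = 0.724 in edgeR).

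**Figure D5:**
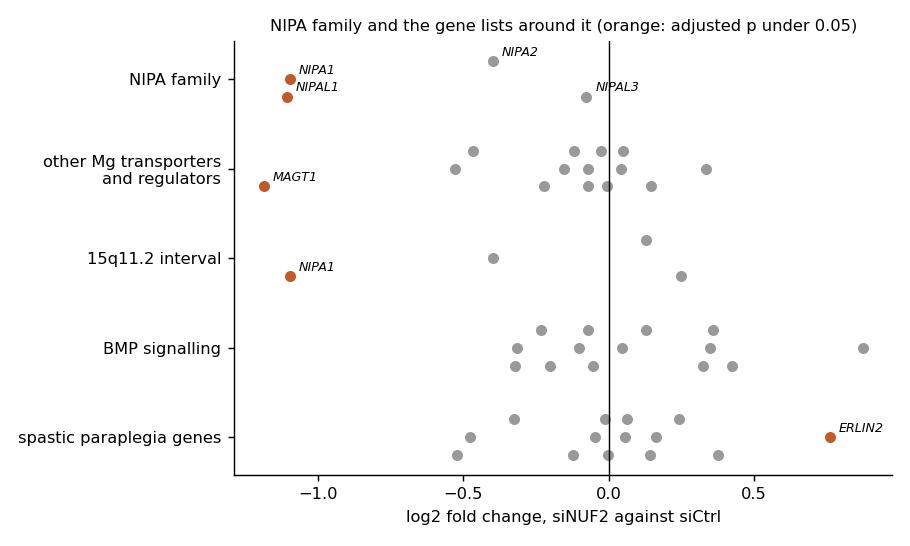
Each point is a tested gene, placed by its log2 fold change of siNUF2 against siCtrl (horizontal axis) within its list (rows); the vertical scatter within a row only separates points, and orange marks an adjusted p under 0.05 in edgeR without the block. NIPA1 and NIPAL1 lie at -1.09 and -1.11 and MAGT1 at -1.18, while most genes of the other lists lie within 0.5 of 0.

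The genes whose pattern over the 6 libraries was most like that of each member were found by the root mean square difference of centred log2 CPM (counts scaled to library size), where 0 is an identical pattern. For NIPA1 they were FNBP1L (0.0485), TMEM65 (0.0606) and EFR3A (0.0967), and NIPAL1 ranked 48 among the genes tested with a distance of 0.185. For NIPAL1 they were CTC-338M12 (0.0609), RMND5A (0.0735) and RCOR1 (0.105), with NIPA1 at rank 57. NIPA2 was closest to DEGS1 (0.0286), FBXO33 (0.0304) and ACBD5 (0.0518), and NIPAL3 to ANO6 (0.0279), AC006001 (0.0378) and EPHA2 (0.0399). No other NIPA member was among the 3 nearest genes of any tested member, which says little with 11725 genes tested. The patterns include the shift between groups, so genes with similar log2 fold changes lie near each other.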

How the data were processed

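Poly(A) RNA of 8505C cells was sequenced by the authors as paired-end reads, with quality control by fastp, alignment to GRCh38 by HISAT2 and calculation by StringTie; versions, annotation release and strand setting are not given in the sources used here. The authors deposited raw counts, which are whole numbers per gene, beside FPKM, which correct for transcript length and sequencing depth. Groups and replicate numbers came from the sample labels, and siNUF2-1 to siNUF2-3 were read as replicates.

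Counts of genes with a mean of at least 1 FPKM were fitted with edgeR 4.0.16 (TMM, quasi-likelihood test, Benjamini-Hochberg adjustment, threshold 0.05) in R 4.3.3, after the code was tested on simulated data. Alternatives used other filters and scalings, DESeq2 1.42.0, limma 3.58.1 on log2(FPKM + pseudocount of 1 or 0.1), the study's rule on FPKM, a replicate block, and each library left out. Single values were compared with exact two-sided permutation tests (scipy 1.17.1).

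No library repeated another, since replicates within a group differed well beyond counting error (chi-square over its degrees of freedom 54.7 to 77.7). Deviations from the group means correlated at 0.418 to 0.539 between libraries with the same number and at -0.316 to -0.125 otherwise, so the numbers pair the libraries; the labels do not say what a number shares. The common dispersion was 0.0452, and 0.0218 with the block. Each library held 61257859 to 69755291 counts. Counting error weighs most on NIPAL4 (at least 85 counts per library), then on NIPAL1 (at least 277) and NIPAL2 (at least 294), and less on the other members.

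Transcripts and 3′ UTRs came from GENCODE release 44, which holds 32855 of the 32985 gene IDs. Genes named are the members, NUF2, genes that overlap a member, in each list those called and the 2 with the largest change, and the 3 nearest patterns per tested member; ARL6IP1, ERLIN1, SMAD4, SMAD5, SPART, TUBGCP5 and ZDHHC13 were added after their values were seen. Members and lists were chosen with earlier results of these data known.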

Additional observations from a re-analysis of the deposited data

How the results depend on the processing

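Genes called across the table numbered 468 (2129 at an unadjusted p under 0.05), 188 with no filter, 309 with edgeR's own filter, 972 with DESeq2 and 1705 with the replicate block, and 124 to 251 without 1 library, the fewest without siNUF2 replicate 1. The block without the filter, chosen after seeing the data, called 0 genes in edgeR (3894 at an unadjusted p under 0.05), and left NIPA1 at a log2 fold change of -1.11 (adjusted p = 0.0831), NIPAL1 at -1.10 (0.138) and NUF2 at -2.99 (0.0617). The call of NIPAL1 was also lost with no filter (-1.10, adjusted p = 0.0825), in limma on log2(FPKM + 1) (-0.55, 0.0575) and log2(FPKM + 0.1) (-1.01, 0.0676), and without any 1 library (-1.21 to -0.99). NIPA2 was called in the fit with the replicate block (-0.41, adjusted p = 0.0184) and in no other setting. NIPAL3 ranged from -0.20 to 0.03 without 1 library and was positive without siCtrl replicate 2 (0.030) or siNUF2 replicate 1 (0.02). The cause of these changes was not tested. NIPA1 was called in the other settings, at -1.24 to -0.97 without 1 library (adjusted p 0.0140 to 0.0419), and the block changed no other member's call. NIPAL2 and NIPAL4, under the filter, have values from fits without it only. Ratios between paralogues from counts gave the same direction as from FPKM. That was fixed in advance, since depth cancels within a library and transcript length adds nearly a constant. Of 254 values under alternatives, 215 were counted as the same, by rules that differed. Log2 fold changes of tested genes had to keep direction and call, which is easily met by a gene never called. Paralogue ratios had to keep direction only, and the remaining values a similar size. Genes outside the family are among the 254. With 3 libraries a group, exact permutation tests cannot go below p = 0.1, and depth limits NIPAL4 most.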
